A study of Mus musculus with 16 samples.

Results

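EWSR1::ATF1 (EA1) is the fusion oncoprotein of clear cell sarcoma, and the regions described here are the V5 peaks that lay at protein-coding promoters carrying both RNA polymerase II and acetylated histone H3. Of the 10665 V5 peaks, 3063 (28.7%, 95% Wilson interval 27.9 to 29.6) met the rule: they overlapped the window within 3 kb of a protein-coding transcription start site (TSS) in the GENCODE M21 annotation of mouse build mm10 (GRCm38), and shared at least 1 bp with a RNAPOL2 peak and with an H3K27ac peak. They are called fusion-bound active promoters below. Because they were chosen by their peaks in all 3 lists, the positions, scores and widths of those peaks are given as a description, and the tests are on DNA sequence and gene arrangement, which the rule did not use.

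The tumours came from mice carrying a V5-tagged human EWSR1::ATF1 cDNA, followed by IRES-EGFP, knocked into Rosa26 behind a loxP-flanked stop. The fusion was switched on by injecting TATCre protein into the hindlimb of animals aged 4 weeks, on a mixed 129/SvJ and C57Bl/6 background, and every sample carried the EWSR1::ATF1 genotype, so there was no tumour without the fusion and no normal tissue for comparison. Chromatin immunoprecipitation was done with antibodies to V5, to phosphorylated RNA polymerase II (RNAPOL2) and to H3K27ac, and the labels give 4 samples for each antibody and 4 of Input. V5 reads only cells that express the fusion, whereas RNAPOL2 and H3K27ac were read from all cells of the piece of tumour. One peak list per antibody was analysed, with no values per tumour, so no spread between tumours is known and the intervals and p-values below describe the lists. The lists hold 20375 RNAPOL2 peaks and 27552 H3K27ac peaks, and the read depth behind them is unknown. Scores are compared only within a list.

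ATF1, CREB1 and CREM are bZIP transcription factors that bind as dimers to the cAMP response element (CRE), the palindrome TGACGTCA, through a basic region that the fusion keeps from ATF1. A single TGACG, called the CRE half-site, can also be bound, and in mammalian genomes such sites lie mainly in unmethylated CpG-rich promoters close to the TSS. Wild-type ATF1 and CREB1 act there after phosphorylation by protein kinase A. In the fusion the low-complexity start of EWSR1, a FET family RNA-binding protein, takes the place of the kinase-regulated part.

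The sequences below show what the DNA under these peaks looks like. They are 61-bp stretches of the plus strand of GRCm38 around a CRE in the central 200 bp of the highest-scored fusion-bound active promoters that had one, outside annotated UTRs, with the CRE in capitals.
Bdp1, chr13:100104087-100104147: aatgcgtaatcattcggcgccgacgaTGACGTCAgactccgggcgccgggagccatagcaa
Yy1, chr12:108792717-108792777: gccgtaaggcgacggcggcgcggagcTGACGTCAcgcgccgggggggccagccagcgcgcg
Nup133, chr8:123949299-123949359: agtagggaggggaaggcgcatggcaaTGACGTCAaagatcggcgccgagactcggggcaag
Clptm1l, chr13:73603915-73603975: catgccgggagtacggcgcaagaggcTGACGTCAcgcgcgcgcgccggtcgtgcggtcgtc
Sik1, chr17:31856010-31856070: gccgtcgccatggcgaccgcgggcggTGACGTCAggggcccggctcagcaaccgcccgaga
Atxn1l, chr8:109737778-109737838: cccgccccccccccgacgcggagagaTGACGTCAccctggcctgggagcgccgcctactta
The CRE lay 47 bp upstream of the TSS at Bdp1, which encodes a subunit of the RNA polymerase III factor TFIIIB. It lay 64 bp upstream at Nup133, a nuclear pore gene, 61 bp upstream at Clptm1l and 69 bp upstream at Atxn1l. It lay farther out, 226 bp upstream, at Yy1, which encodes a zinc finger transcription factor, and 236 bp upstream at Sik1, a kinase gene induced by cAMP. The V5 score of these peaks was 3037 at Bdp1, 2925 at Yy1, 2667 at Nup133, 2380 at Clptm1l, 2059 at Sik1 and 2004 at Atxn1l.

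A second set shows an octamer that was picked out after the values were seen, TGATGACG, in which the letters TGA stand before the half-site. It is printed for the 3 highest-scored fusion-bound active promoters that held it in the central 200 bp and held no CRE, and its capitals read CGTCATCA on the plus strand.
Nup153, chr13:46727991-46728051: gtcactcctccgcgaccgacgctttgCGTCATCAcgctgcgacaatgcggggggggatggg
Tubgcp6, chr15:89123168-89123228: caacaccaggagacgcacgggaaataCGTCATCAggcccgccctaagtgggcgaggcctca
Fbxw7, chr3:84814424-84814484: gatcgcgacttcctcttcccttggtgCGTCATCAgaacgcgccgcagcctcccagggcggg
The last set is the middle of the 2 highest-scored fusion-bound active promoters with no CRE, CRE variant, half-site or AP1 motif anywhere in the peak, among those whose printed stretch touches no annotated UTR.
Proser1, chr3:53463501-53463561: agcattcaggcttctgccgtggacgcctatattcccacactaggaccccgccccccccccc
Ergic1, chr17:26606941-26607001: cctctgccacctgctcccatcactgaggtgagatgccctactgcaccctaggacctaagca
The Proser1 peak had a V5 score of 3702, rank 151 of all V5 peaks, above every CRE-centred peak printed here. The Ergic1 peak scored 955.

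The fusion-bound active promoters sat on the TSS itself. The middle of the V5 peak lay a median of 82 bp from the nearest coding TSS, and 1717 of 3063 middles (56.1%) were within 100 bp and 2310 (75.4%) within 250 bp. The peak contained a coding TSS in 2593 cases (84.7%). The middles lay on both sides of the TSS, 1708 (55.8%) of them upstream, with quartiles at -98 and 52 bp. The middle base fell in a 5′ UTR exon at 1135 promoters, outside coding genes at 949, in an intron at 678, in a coding exon at 202, in another exon at 85 and in a 3′ UTR exon at 14. V5 peaks in the same promoter windows without a RNAPOL2 peak, 522 in all, were spread more widely over the window, with a median distance of 1478 bp. Distance within the window is not set by the rule, but RNAPOL2 peaks mark TSSs, so no test was made of this difference.

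**Figure D1:**
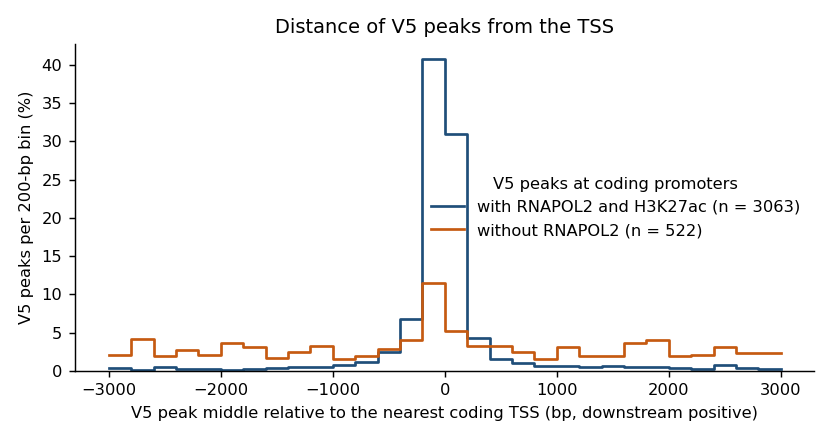
Share of V5 peaks per 200-bp bin of the distance from the peak middle to the nearest coding TSS (bp, downstream positive) for the 3063 fusion-bound active promoters and the 522 V5 peaks at coding promoters without RNAPOL2. The bins on either side of the TSS held 40.7% and 31.0% of the fusion-bound active promoters, and the other line reaches 11.5% just upstream of the TSS and is low elsewhere.

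The 3 peaks were nested. The V5 peak lay wholly inside the RNAPOL2 peak at 2316 promoters (75.6%), wholly inside the H3K27ac peak at 2835 (92.6%) and inside both at 2253 (73.6%). Median widths were 720 bp for V5, 1290 bp for RNAPOL2 and 2270 bp for H3K27ac. The middle of the RNAPOL2 peak lay a median of 40 bp downstream of the V5 middle (quartiles -60 and 205 bp), and that of the H3K27ac peak 160 bp downstream. RNAPOL2 middles were on the gene side of the V5 middle at 1855 promoters (60.6%). Distal V5 peaks with both marks, 1142 peaks outside every TSS window, had wider H3K27ac peaks, 3650 bp at the median, and RNAPOL2 peaks of much lower score, 107 against 1331.

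Peaks lay close to the limits of the rule on both sides. The last peaks inside the 3-kb window were 2998 bp from Ergic1 and 2987 bp from Nr2f2, with V5 scores of 208 and 50, and the first outside were 3007 bp from Gnai2 and 3023 bp from Plac9b, with scores of 185 and 153. The smallest overlaps with RNAPOL2 were 60 bp at Rassf5 and 120 bp at Hoxa7, and the nearest misses were 80 bp away at Slpi and 90 bp away at Hgf. For H3K27ac the smallest overlaps were 100 bp at Mrfap1 and 140 bp at Prmt5, and the nearest misses were 240 bp away at Frmd6 and 630 bp away at Gm47283. Their V5 scores were 301 at Rassf5, 59 at Hoxa7, 232 at Slpi, 246 at Hgf, 185 at Mrfap1, 94 at Prmt5, 132 at Frmd6 and 101 at Gm47283, with no clear order between hits and misses.

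Most of these promoters belonged to 1 gene. The window of 2541 peaks held 1 coding gene, that of 485 held 2, and that of 37 held 3 or more. In the other direction, 3297 coding genes had a fusion-bound active promoter, 15.0% of the 21938 coding genes and 28.8% of the 11443 with RNAPOL2 and H3K27ac peaks at their promoters (3296 genes). A single such peak was found at 3042 genes, a pair at 199 and 3 or more at 56. Tbx15, a T-box gene on chromosome 3, and Pde4d, which encodes a cAMP phosphodiesterase, had the most, 5 each, with top V5 scores of 2223 and 1346. The genes with 4 included Man2a1 and Jmjd1c.

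The question of what set the bound promoters apart from other active ones was put to the DNA at the TSS. An active TSS lay inside both a RNAPOL2 and an H3K27ac peak. Of coding genes with one, 2853 had it inside a fusion-bound active promoter (bound) and 7478 had no peak of this V5 list within 3 kb of any of their TSSs (unbound), so that 27.6% of these 10331 genes were bound. The sequence from 250 bp before to 50 bp after the TSS was searched on both strands for 12 motifs. A CRE was present at 358 bound genes (12.5%, 11.4 to 13.8) and at 73 unbound genes (0.976%, 0.777 to 1.23), an odds ratio of 14.6 (95% interval 11.3 to 18.8, Fisher's exact test, two-sided, Benjamini-Hochberg adjusted p = 2.72e-132 over 50 tests). Of all 32851 RefSeq promoters of that length, 1.79% held a CRE. The half-site was present at 62.1% of bound and 26.0% of unbound genes (odds ratio 4.65, 4.25 to 5.10, exact adjusted p = 2.05e-247), against 20.8% of all promoters. In CpG-rich promoters alone the odds ratios were 17.9 for the CRE and 4.40 for the half-site, and with only the upper 50% of V5 peaks counted as binding they were 26.3 and 7.76.

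The other promoter motifs differed far less between bound and unbound genes than the CRE and the half-site, and several calls moved with the settings. The ETS motif CCGGAAG was present at 20% and 20.1% (odds ratio 0.993, 0.892 to 1.11, exact adjusted p = 0.913), and at 8.86% of all promoters. TATAAA was found at 5.64% and 5.75% (odds ratio 0.980, 0.814 to 1.18, exact adjusted p = 0.867), and passed with a window of 500 bp before to 100 bp after the TSS (0.843, exact adjusted p = 0.0108). The E-box CACGTG, bound by MYC family and clock factors, was found at 11.2% and 10.3% (1.10, 0.959 to 1.26, exact adjusted p = 0.206). The NRF1 motif GCATGCGC, at 5.47% and 6.37%, and the YY1 motif AAGATGGC, at 4.42% and 5.19%, also missed the threshold, with intervals of the odds ratio of 0.706 to 1.02 and 0.687 to 1.04. Both were called lower in bound genes with the upper 50% of RNAPOL2 and H3K27ac peaks, at 0.795 (exact adjusted p = 0.0303) and 0.760 (exact adjusted p = 0.0217), and NRF1 also in CpG-rich promoters alone (0.773, exact adjusted p = 0.0132) and with genes bound within 3 kb (0.798, exact adjusted p = 0.0220). The NFY box CCAAT was slightly less frequent in bound genes, 36.5% against 39.2% (0.889, 0.813 to 0.972, exact adjusted p = 0.0151, lost with protein-coding transcripts only), and the SP1 box GGGCGG slightly more frequent, 71.7% against 68.1% (1.19, 1.08 to 1.31, exact adjusted p = 0.000579), a call lost in CpG-rich promoters alone (1.11, exact adjusted p = 0.0680) and reversed with the upper 50% of V5 peaks (0.953, exact adjusted p = 0.587). The AP1 motif TGAGTCA stood at 3.65% against 2.67% (1.38, 1.08 to 1.75, exact adjusted p = 0.0161), a call that was lost under 5 of the alternatives, at odds ratios of 1.14 to 1.41. The highest of these, with the upper 50% of V5 peaks (exact adjusted p = 0.0711), was no smaller than the main value. The CRE variants TGANNTCA, leaving out the CRE itself, stood at 6.87% and 5.84% (1.19, 0.998 to 1.41, exact adjusted p = 0.0730), and were called higher in bound genes with the upper 50% of V5 peaks (1.59, exact adjusted p = 0.000206) and in CpG-rich promoters alone (1.39, exact adjusted p = 0.00203). The ATF4 motif TGATGCAA stood at 0.421% and 0.562% (0.748, 0.393 to 1.42, exact adjusted p = 0.496). Among all promoters these motifs were found at 13.6% (TATAAA), 7.15% (CACGTG), 2.71% (GCATGCGC), 2.75% (AAGATGGC), 37.4% (CCAAT), 35.7% (GGGCGG), 5.20% (TGAGTCA), 12.5% (TGANNTCA) and 0.895% (TGATGCAA).

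**Figure D2:**
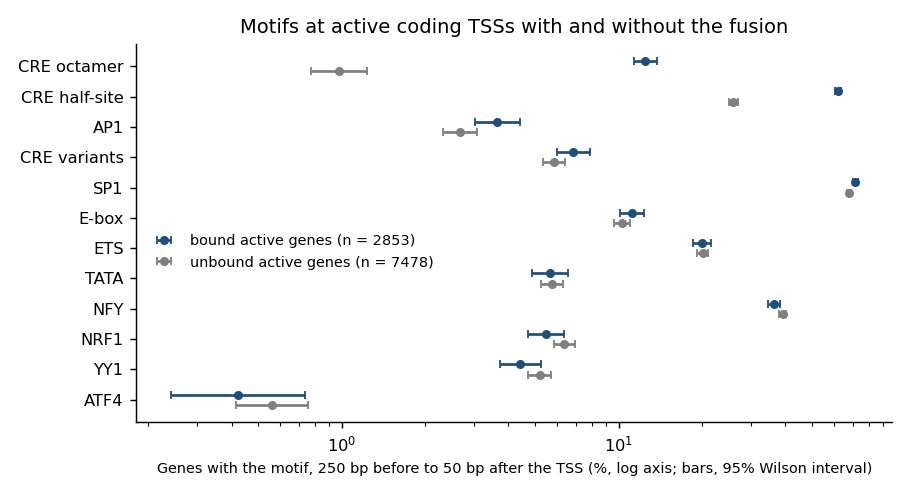
Share of coding genes with an active TSS that hold each of 12 motifs from 250 bp before to 50 bp after it (%, log axis), for 2853 bound and 7478 unbound genes, with 95% Wilson intervals and in order of the odds ratio. The CRE (12.5% against 0.976%) and its half-site (62.1% against 26.0%) stand apart, and the remaining motifs lie close together.

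Read the other way, the sequence at the TSS graded how often an active gene was bound. Of the 431 active genes with a CRE, 358 (83.1%, 79.2 to 86.3) were bound, against 25.2% of the 9900 without. Counting a CRE as 1 half-site, 16.4% of genes with no half-site were bound (1082 of 6614), 41.1% with 1 (1167 of 2837), 63.9% with 2 (453 of 709) and 88.3% with 3 or more (151 of 171). The intervals of the 4 shares did not overlap. In promoters that were not CpG-rich the order was the same at lower levels, from 6.90% with none to 35.7% with 2 half-sites (25 of 70 genes). Of the bound genes, 1082 (37.9%) had no half-site in this window.

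The bases beside the half-site also differed between bound and unbound genes, which is given as a description of all 64 possible extensions on each side. On the downstream side, 59 of 64 octamers beginning with TGACG were more frequent at bound genes, and 36 had a ratio of shares above 2. The half-site that all of them hold was itself present at 62.1% of bound and 26.0% of unbound genes. The CRE had the highest ratio of shares, 12.9, followed by TGACGTAT at 12.6 (24 bound and 5 unbound genes), TGACGTAG at 9.61 and TGACGTAC at 6.81. TGACGCCA and TGACGCAC had ratios of 5.98 and 5.75. TGACGGGA stood at 0.736% of bound and 0.735% of unbound genes, and the lowest ratio was 0.342 for TGACGATT (3 bound and 23 unbound genes). On the upstream side the octamer TGATGACG stood out with a ratio of 20.7: it was found at 142 bound genes (4.98%) and 18 unbound genes (0.241%), and at 0.794% of all promoters. Of those 142 genes 101 had no CRE in the window. The next octamers, CGATGACG and AGATGACG, had ratios of 8.26 and 8.04, and GTTTGACG was the lowest at 0.798. In the central 200 bp of the V5 peaks TGATGACG was less particular to promoters: it was present in 3.98% of fusion-bound active promoters (122 of 3063), 2.80% of distal V5 peaks with both marks and 2.87% of promoter V5 peaks without RNAPOL2. The V5 score of the 122 was 702 at the median, against 374 for promoters with a central CRE.

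Half-sites and the activity of the promoter went together with binding side by side. Bound genes had higher RNAPOL2 scores at the TSS than unbound genes, 1425 against 790 at the median, and higher H3K27ac scores, 1663 against 792, with wider H3K27ac peaks, 2050 against 1540 bp. When the active genes were split into 5 equal groups by H3K27ac score, the bound share climbed from 9.34% in the lowest group to 54.0% in the highest, and by RNAPOL2 score from 12.3% to 50.2%. The share of genes with a CRE moved far less across the same groups, between 3.34% and 5.13% by H3K27ac score and between 3.34% and 4.93% by RNAPOL2 score. In 3 equal groups by H3K27ac score, genes with no half-site were bound at 3.47% in the lowest, 12.5% in the middle and 35.6% in the highest group. With 1 half-site the shares were 24.3%, 40.2% and 55.9%, and with 2 they were 37.5%, 64.3% and 80.0%. With 3 or more half-sites the shares were 84.0% (21 of 25 genes), 85.1% (57 of 67) and 92.4% (73 of 79), and their intervals overlapped in these small groups. How far the H3K27ac or RNAPOL2 level bears on the calling of a V5 peak was not tested.

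**Figure D3:**
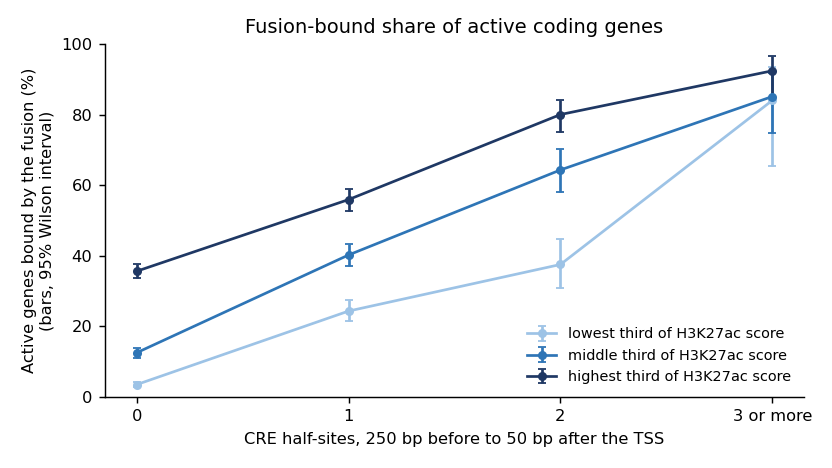
Share of active coding genes that were bound (%, with 95% Wilson intervals) by the number of CRE half-sites from 250 bp before to 50 bp after the TSS, with one line for each of 3 equal groups by H3K27ac score. The lines start apart, at 3.47%, 12.5% and 35.6%, and are still apart with 2 half-sites, at 37.5%, 64.3% and 80.0%. With 3 or more they reach 84.0%, 85.1% and 92.4%, in groups of 25, 67 and 79 genes.

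Bound genes also differed in the type of promoter. CpG-rich promoters, with at least 50% GC and an observed to expected CpG ratio of at least 0.6 over 1000 bp, made up 91.5% of bound and 76.8% of unbound genes (odds ratio 3.24, 2.82 to 3.74, exact adjusted p = 8e-72). Divergent promoters, with the TSS of another coding gene on the opposite strand within 1 kb upstream, made up 21.4% against 15.9% (1.44, 1.29 to 1.60, exact adjusted p = 3.44e-10). Of the 1799 divergent active genes 33.9% were bound. Both genes of a divergent pair could enter this test through the same V5 peak, so they are not independent. On the X chromosome 23 of 254 active genes were bound (9.06%, 6.11 to 13.2), against 28.1% of autosomal ones, and single autosomes ranged from 21.4% on chromosome 4 to 35.5% on chromosome 14.

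Within the V5 peaks the CRE marked the middle. The 3063 peaks held 507 CREs, of which 203 (40.0%) lay within 50 bp and 324 (63.9%) within 100 bp of the peak middle. Their density was 0.679 and 0.633 per kb in the 50-bp bins on either side of the middle and 0.0784 and 0.0914 per kb 200 to 250 bp away. Half-sites fell from 5.24 and 4.56 per kb at the middle to 1.61 and 1.55 per kb at that distance. These densities include the CREs, each of which was counted on both strands. ETS motifs also peaked there, with 0.862 and 0.842 per kb at the middle and 0.326 and 0.300 per kb at 200 to 250 bp, a fall close to that of the half-site. AP1 motifs had 0.189 and 0.111 per kb at the middle and 0.104 and 0.0914 per kb at that distance, with no peak at the middle over the bins. Relative to the gene, 391 CREs (77.1%) were upstream of the nearest coding TSS, 266 (52.5%) within the first 100 bp upstream, and the median position was 35 bp upstream. The 50 bp before the TSS held 197 CREs and the 50 bp after it 59.

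**Figure D4:**
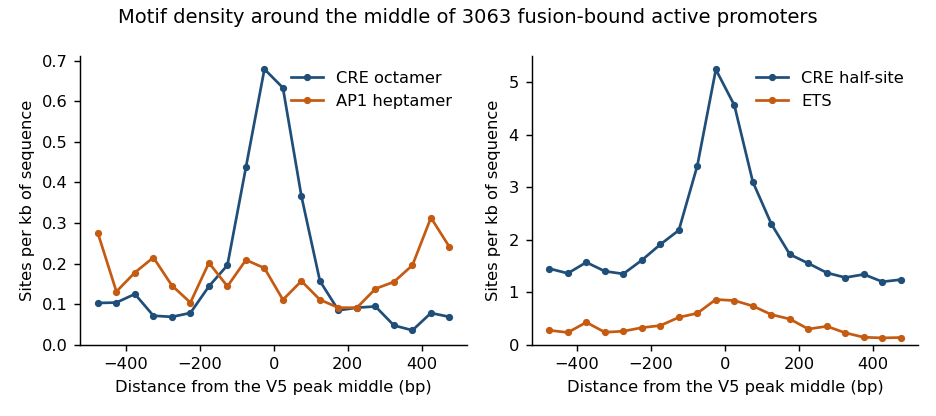
Sites per kb of sequence in 50-bp bins of the distance from the V5 peak middle (bp) over the 3063 fusion-bound active promoters, with the CRE and AP1 motifs in the left panel and the half-site and ETS motifs in the right, on different scales. The CRE, half-site and ETS lines peak at the middle, at 0.679, 5.24 and 0.862 sites per kb, whereas the AP1 line does not. The half-site line includes the CREs, each counted on both strands.

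Against distal V5 peaks with both marks and promoter V5 peaks without RNAPOL2, the fusion-bound active promoters were rich in the CRE and poor in its variants. A CRE lay in the central 200 bp of 310 of 3063 (10.1%, 9.10 to 11.2), against 41 of 1142 distal V5 peaks with both marks (3.59%, odds ratio 3.02, 2.17 to 4.22, exact adjusted p = 1.03e-12). That ratio was 1.91 with the upper 50% of RNAPOL2 and H3K27ac peaks and 5.62 with the upper 50% of V5 peaks. The share was 30 of 522 (5.75%) in promoter V5 peaks without RNAPOL2 (odds ratio 1.85, 1.25 to 2.72, exact adjusted p = 0.00189, lost with a 1-kb window). CRE variants had 5.26% at the fusion-bound active promoters, 17.3% at the distal peaks (odds ratio 0.265, 0.212 to 0.330) and 24.3% at promoter peaks without RNAPOL2 (0.173, 0.134 to 0.223). AP1 motifs had 3.04%, 11.4% and 10.9%. SP1 boxes had 54.6%, 12.1% and 5.75% and ETS motifs 12.4%, 1.49% and 1.92%. The peak middles lay a median of 82 bp, 18974 bp and 1478 bp from a coding TSS in the 3 classes, and the part of this distance in the shares of any of these motifs was not tested. Since RNAPOL2 peaks, which the rule used, mark TSSs, the SP1 and ETS shares are given as a description.

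Each of the 3063 peaks was placed by the first motif found in its whole length, in the set order CRE, variant, half-site, AP1. A CRE was present in 465 (15.2%) and a variant without a CRE in 457 (14.9%). A half-site without either was present in 1689 (55.1%), some of which also held AP1. AP1 without the other motifs was found in 38 (1.24%), and no motif of this order in 414 (13.5%). Their median V5 scores were 338, 241, 153, 84.5 and 79.5 in that order. The peaks without a motif were narrower, 630 bp against 770 bp for those with a CRE, so they also had less sequence to hold one.

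Among the fusion-bound active promoters the group with the highest V5 scores had the lowest median RNAPOL2 and H3K27ac scores. Divided into 5 equal groups by V5 score, the lowest group (scores 21 to 76) held a central CRE in 2 of 612 peaks (0.327%, 0.0897 to 1.18) and the highest (565 to 19716) in 116 of 613 (18.9%, 16.0 to 22.2). The central half-site rose over the groups from 25.7% through 43.1%, 56.5% and 65.1% to 70.6%. The higher-scored 1571 peaks held a CRE in 16.0% and the lower-scored 1492 in 3.89% (odds ratio 4.72, 3.52 to 6.34, exact adjusted p = 7.06e-30), which became 1.22 (exact adjusted p = 0.296) within the upper 50% of V5 peaks. The SP1 box fell in the same split, from 58.2% in the lower to 51.1% in the upper (0.748, 0.648 to 0.862, exact adjusted p = 0.000131), a call also lost within the upper 50% of V5 peaks (0.776, exact adjusted p = 0.0559). ETS motifs went the other way, from 9.12% in the lower to 15.6% in the upper (1.84, 1.47 to 2.30, exact adjusted p = 1.36e-07), as did the CRE variants, from 2.95% to 7.45% (2.65, 1.86 to 3.77, exact adjusted p = 4.3e-08). Within the upper 50% of V5 peaks these calls too were lost, at 1.41 (exact adjusted p = 0.0631) and 1.07 (exact adjusted p = 0.886). The median RNAPOL2 score was 1589 in the lowest V5 group and 981 in the highest, and that of H3K27ac 1922 and 1172. Thus the active promoters with the least polymerase had the fewest V5 peaks, yet among those with a V5 peak the median polymerase score fell as the V5 score rose. This was a shift of medians within a wide spread, with RNAPOL2 quartiles of 660 and 2315 over all fusion-bound active promoters. In the TSS window of bound genes the lowest of 5 V5 groups still held a half-site at 42.5% (38.5 to 46.6), above the 26.0% of unbound genes, and a CRE at 1.23% (0.596 to 2.51), whose interval includes the 0.976% of unbound genes.

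Shares at the top of the score order are given as a description, with no test of their difference. Of the 50 highest-scored fusion-bound active promoters 4 held a central CRE (8%, 3.15 to 18.8), of the next 150 peaks 33 (22.0%, 16.1 to 29.3), and of the next 400 peaks 77 (19.2%). AP1 motifs had 8 of 50 (16.0%, 8.34 to 28.5) at the top and 3.33% and 3.00% below. None of the 12 highest-scored held a CRE anywhere in the peak.

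Those 12 were led by Crem, the gene of a CREB family member that is itself a target of cAMP, with a V5 score of 19716. Its promoter peak, chr18:3334501-3338450, was 3950 bp wide with 5 half-sites and 2 variants. Btbd9 followed with 9624 at chr17:30575531-30577640 (7 half-sites). Ctu2, a tRNA thiolation gene, scored 6858 at chr8:122475681-122476600 and had its middle 2 bp upstream of the TSS. Nup153, a nuclear pore gene, scored 6725 at chr13:46727491-46728400, 6 bp upstream. These narrow peaks of 920 and 910 bp on the TSS contrast with the wide ones at Trafd1 (6437, 2690 bp), A730049H05Rik (6262, 2120 bp) and Adarb1 (6371, 1870 bp), the last of which encodes an RNA-editing adenosine deaminase and had its middle in an intron, 1488 bp downstream of the nearest TSS.

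A pair of entries in this top group cannot be told apart by sequence. The peaks at 9030025P20Rik and Gm3448 on chromosome 17, with scores of 6083 and 6049, were identical over all 908 bases that align, so reads may have been split or shared between these copies. Both held an AP1 motif and no half-site. Ncoa3, a nuclear receptor coactivator gene, scored 6030 with a peak whose middle lay in an intron, 2106 bp downstream of the nearest annotated TSS of the gene, which is an internal one, and a RNAPOL2 score of only 400. Eprs, the glutamyl-prolyl-tRNA synthetase gene, scored 5852, with a RNAPOL2 score of 2316 and H3K27ac of 5732. The peak of Lias, a lipoic acid synthesis gene, scored 5717 and was shared with the ribosomal protein gene Rpl9.

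The promoters with the most CREs were not those with the highest scores. The peak at Csf2ra, a cytokine receptor subunit gene at the end of chromosome 19 (chr19:61225781-61227650), held 7 CREs and 9 further half-sites, with a V5 score of 709. Its CREs stood 309, 83, 320, 32, 302 and 282 bp apart. Ppp2r3d (chr9:124422871-124426140) and Map1lc3a (chr2:155275961-155277080), the LC3 gene of autophagosomes, held 4 each, with scores of 1930 and 569. At Map1lc3a a pair of CREs stood 14 bp apart, and at Ralgapa1 (chr12:55820811-55821500, 3 CREs, score 363) a pair stood 16 bp apart. An internal promoter of Crem (chr18:3279871-3282900) held 3 CREs and scored 5143. Nup133, Hist1h4a and Larp7, with 2 CREs each, scored 2667, 2334 and 1645. In all, 434 peaks held 1 CRE, 26 held 2 and 5 held 3 or more.

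At the promoters with the most polymerase the V5 scores were near the middle of the range or below it. The highest RNAPOL2 scores were 22048 at Eapp, 18012 at Jund, 17186 at Polr2a, which encodes the largest polymerase II subunit, and 16996 at Tex14. Their V5 scores were 185, 218, 239 and 80, against a median of 163 for all fusion-bound active promoters. The Jund peak alone of the 4 held a CRE. Tex14 had a low H3K27ac score of 261 beside its RNAPOL2 score, and its V5 middle lay in an intron, 905 bp upstream of an internal TSS of the gene.

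Genes of the CREB and AP1 families were among those bound, to be read against the background of 28.8% of active coding genes. The lists were drawn up with earlier results of these data known, and membership is described with no test. Over active genes the bound share reached 50.2% in the highest of 5 groups by RNAPOL2 score and 54.0% by H3K27ac score. The part of promoter activity in the list shares was not tested. Of 8 genes of CREB1, CREM, ATF1 and their coactivators, all active, 4 had a fusion-bound active promoter: Crem, Creb1 (V5 score 3795), Crebbp (318), which encodes the acetyltransferase CBP, and Atf1 itself (153). None of the 4 top peaks held a CRE. All 6 active genes of the 7 in the Fos and Jun list had one, with scores of 1149 at Fos, 523 at Fosl2, 428 at Junb, 354 at Fosb, 218 at Jund and 142 at Jun, below the Creb1 value in every case. These 6 genes had 10 peaks between them. The median top score over all coding genes with such a peak was 185.

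Immediate early genes that CREB is known to switch on had the largest share among lists with 10 or more active genes, 13 of 18 (72.2%). The orphan nuclear receptor genes Nr4a3 (4016), Nr4a2 (3018) and Nr4a1 (1209) and the salt-inducible kinase gene Sik1 (2059) led, and Sik1, Ier2 and Btg2 were the 3 with a CRE in the peak. Egr1 and Klf6 were at the low end, with 113 and 94. Of the circadian list 12 of 20 (60.0%) were bound, led by Nfil3 (2767), a bZIP repressor gene, and Nr1d2 (289). Per1 (277) and the kinase genes Csnk1e (208) and Csnk1d (207) each held 1 CRE. Other ATF and stress bZIP genes had 15 of 26 (57.7%), counting the 2 annotated entries of Ddit3, led by Atf4 (798), Cebpb (402), Mafk (344) and Bach2 (333). Their median of 135 was below the 185 of all genes.

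Signalling lists lay between these and the background. In the cAMP pathway 14 of 32 (43.8%) were bound, through 23 peaks. Pde10a (2615), Rapgef4 (2558) and Pde4d (1346), which encode 2 phosphodiesterases and a cAMP-regulated exchange factor, and Gnas (1292), the stimulatory G protein gene, led. The genes of the protein kinase A catalytic subunits, Prkacb (739) and Prkaca (289), were bound too. MAP kinase feedback genes had 8 of 16 (50%), with the phosphatase gene Dusp1 (931) far above Dusp10 (179), Dusp8 (174) and Spred1 (174). The Dusp1 peak held 1 CRE and the low-scored Dusp8 peak 2. Autophagy genes had 14 of 29 (48.3%), led by Atg7 (2921), Atg4b (1292), Atg16l1 (722) and Atg5 (608). Cell cycle and p53 pathway regulators had 11 of 28 (39.3%), led by Ccna2 (809, with a CRE), Pcna (509), Cdkn1a (299) and Cdkn1b (289). Of the 4 RUNX and Cbfb genes Runx2 (213) and Runx1 (174) were bound.

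Housekeeping lists lay on both sides of the background. General transcription and Mediator genes had 36 of 88 (40.9%), with Med20 (2999) and Gtf2h3 (2297) highest, the latter through a peak shared with the translation factor gene Eif2b1. Splicing factor genes had 17 of 45 (37.8%, led by U2af1 at 2241), chaperones 28 of 74 (37.8%, led by Dnajb2 at 1702), cytosolic ribosomal protein genes 29 of 81 (35.8%, led by Rpl9 at 5717 and Rpl18 at 2889), translation factor genes 21 of 63 (33.3%) and genes with secretory and vesicle traffic symbols (Sec, Cop, Tmed, Vps and Rab) 39 of 125 (31.2%, led by Vps37a at 2186). Aminoacyl-tRNA synthetase genes had 9 of 35 (25.7%), proteasome genes 11 of 46 (23.9%, led by Psmb2 at 4762, with a CRE), zinc finger genes named Zfp 68 of 301 (22.6%, led by Zfp395 at 1790 and Zfp335 at 1737) and nuclear respiratory chain genes 16 of 78 (20.5%, led by Ndufa10 at 3466, with a CRE). Among these housekeeping lists the median top score was highest, 453, in the respiratory chain list. No test was made of these shares against the 28.8% of all active coding genes. The named peak of Med20 lay nearest to a TSS of Bysl, and that of Vps37a nearest to a TSS of Cnot7. The lists were taken largely by gene symbol, and some hold genes with other roles, such as Cops8, Cops3 and Vps72 among the genes with symbols of vesicle traffic and the RNA-binding Zfp36, Zfp36l1 and Zfp36l2 among the Zfp genes.

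Replication-dependent histone genes had 41 of 64 (64.1%), but they lie in clusters and the 41 genes had only 21 peaks between them. A single peak with 2 CREs (score 2334) served Hist1h1a, Hist1h3a and Hist1h4a, and the median over the list was 84.

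Lists of tissue markers held few active genes to set against the 28.8% of all active coding genes, and no test was made of their counts. Collagen genes had 1 of 15 (Col12a1, 122), although 15 of the 44 annotated were active. Melanocyte and neural crest markers had 1 of 6 active and 21 annotated (Sox9, 94). None of 2 active skeletal muscle, 3 leukocyte or 4 endothelial markers had a fusion-bound active promoter, and neither did the single olfactory receptor gene called active of 1093. A few markers of muscle, leukocytes and endothelium were thus called active in these tumour pieces, and the part of such cells in the unbound group was not tested.

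**Figure D5:**
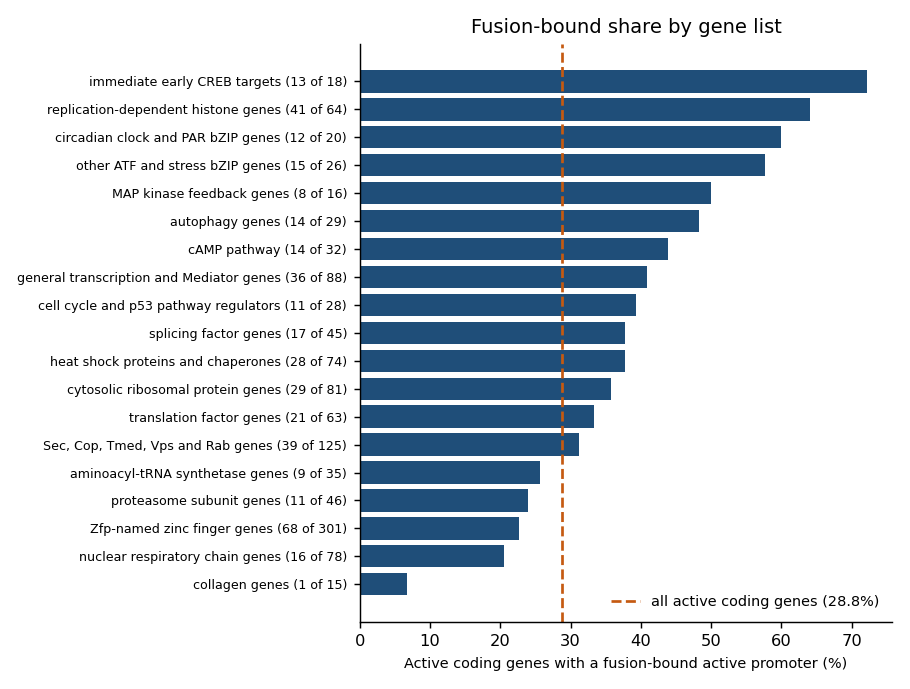
Share of active coding genes with a fusion-bound active promoter (%) in each gene list with 10 or more active genes, with the number of genes in brackets and the 28.8% of all active coding genes as a dashed line. Immediate early CREB targets (72.2%) are at the top, housekeeping lists lie on both sides of the line, and collagen genes (1 of 15) are at the bottom.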

How the data were processed

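ChIP-seq of mouse tumours was analysed from 3 deposited peak lists, 1 each for V5, RNAPOL2 and H3K27ac, over 16 labelled samples (4 for each antibody and 4 of Input). Per the study's methods and the submitters' processing notes, the authors aligned reads to mm10 with BWA-MEM (0.7.10-r789), removed duplicates, called peaks with MACS2 (2.2.6, p = 1e-10, Input as background, broad mode for H3K27ac) and dropped denylisted regions. The methods name more V5 and RNAPOL2 samples than the labels, and the samples behind each list are not given in the sources used here. The deposited score of each peak has no stated scale, and scores were set only against others of the same list. The V5 list analysed here, 10665 peaks, matches in length a V5 set that the paper uses in part of its work and is much shorter than the largest set there, so a gene called unbound here may lie under a peak of that set. Read depth is unknown. Coordinates lay on a 10-bp grid, no peak was narrower than 500 bp and none ran beyond a chromosome end.

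Peaks were intersected with GENCODE M21 and GRCm38 sequence in Python 3.11.15 (pandas 2.3.3, scipy 1.17.1). Motifs were searched on both strands. Shares of peaks or genes were compared by Fisher's exact test, two-sided, with Benjamini-Hochberg adjustment over 50 tests and a threshold of 0.05. Intervals are 95% Wilson and cover counting error only. Neighbouring peaks, and genes that share a promoter, are not independent. The code for overlaps and for the motif search, except that of the CRE variants, was tested on simulated data. Members, gene lists and motifs were chosen with earlier results of these data known. Genes were named by rule: the 12 highest V5 scores, the 8 peaks with the most CREs, the 4 highest RNAPOL2 scores, up to 4 per gene list, the peaks nearest each limit, and the genes with most peaks. Names beyond these, Egr1, Klf6, Ier2, Btg2, Csnk1e, Csnk1d and the other Fos and Jun genes among them, were chosen after values were seen. RefSeq promoters (GRCm38.p6) gave the shares over all promoters. Some named genes and 1 gene list are not reported here.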

Additional observations from a re-analysis of the deposited data

How the results depend on the processing

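No paired analysis was possible because each antibody has 1 list and no values per sample, so no replicate could be left out or used as a block. The share of V5 peaks meeting the rule was 28.7% and became 26.8% with a 1-kb window, 30.1% with a 5-kb window, 27.7% with 50% overlap, 27.6% at the middle base, 25.6% with the upper 50% of RNAPOL2 and H3K27ac peaks, 22.5% with the upper 50% of V5 peaks and 27.7% with protein-coding transcripts only. The number of genes, 3297, became 1383 with the upper 50% of V5 peaks. The CRE odds ratio against promoter V5 peaks without RNAPOL2 fell from 1.85 to 1.54 (exact adjusted p = 0.144) with a 1-kb window. That between higher- and lower-scored peaks fell from 4.72 to 1.22 (exact adjusted p = 0.296) within the upper 50% of V5 peaks, where the low scores are absent by construction. The cause of the former was not tested. Of the odds ratios called in either setting, those that reversed were SP1 at the TSS, 0.953 with the upper 50% of V5 peaks, and NFY over whole peaks, 0.672 against distal peaks and 0.800 against promoter peaks without RNAPOL2. The remaining 58 odds ratios of the CRE, of divergent promoters and of CpG-rich promoters kept their direction and call, as did 385 for the other motifs, while 31 others lost and 12 gained a call. A further 20, called in neither setting, crossed 1, among them ETS, YY1 and TATAAA at the TSS and, with the longer TSS window, the CRE variants (0.966). With 1 list per antibody, variation between tumours is not known, and a promoter without a V5 peak may carry the fusion below the calling threshold.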
